A study of Homo sapiens with 18 samples.

Results

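The 10 genes described here encode ATP-binding cassette (ABC) transporters that move lipids and drugs out of cells: ABCA1, ABCG1, ABCA3, ABCB1, ABCC1, ABCC2, ABCC3, ABCC4, ABCC5 and ABCG2. They were taken from a list of names, and every array probe that the platform annotation gives to one of them was read, whatever its values. The annotation pairs 17 probes with 9 of the 10 genes, out of 47323 probes and 20046 named genes in the series. It lists no probe for ABCC1, which was not analysed here. Of the 17 probes, 13 were detected (detection p under 0.05 against the array's background) on at least 3 of the 18 arrays, which gave 8 genes with a test among 13712 genes tested. The only probe for ABCG2 was detected on 0 arrays.

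RNA came from 3 human colorectal cancer cell lines, SW480, LS174T and HCT116, each a single established line. Each line received either 50 nM calcitriol, the active vitamin D hormone, or the vehicle ethanol, and was harvested after 16 hours, with cells of both kinds kept in medium with charcoal-treated serum. Each of the 6 groups (SW480 calcitriol, SW480 ethanol, LS174T calcitriol, LS174T ethanol, HCT116 calcitriol and HCT116 ethanol) has 3 Illumina HT-12 BeadChip arrays. The labels number the replicates and do not call them separate cultures, so the spread behind each p-value may be technical.

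ABC transporters use ATP to carry substrates across membranes. ABCA1 and ABCG1 pass cholesterol and phospholipid to lipoproteins and are textbook targets of the liver X receptors (LXR), nuclear receptors for oxysterols that pair with RXR. ABCB1 (P-glycoprotein), the ABCC proteins and ABCG2 export drugs, conjugates and bile constituents. Those on the apical side of the gut wall limit the uptake of what is eaten. The vitamin D receptor also pairs with RXR and is known to induce ABCB1 in intestinal cells.

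Between 19295 and 21028 probes (40.8% to 44.4%) were detected per array, and replicates correlated at 0.991 to 0.994. CYP24A1, the enzyme that degrades calcitriol and the standard sign that the hormone acted, rose by 1.31 ± 0.10 (SE) log2 units in SW480, at least 176-fold in LS174T and by 1.56 ± 0.10 in HCT116. The starting levels differed: in ethanol its mean was 9.17 log2 units in SW480 and 11.18 in HCT116, and no LS174T array detected it. Epithelial markers were most complete in LS174T: all 12 were detected on every array there, while CDX1, CEACAM5 and LGALS4 were detected on no SW480 or HCT116 array, and CDH17 and VIL1 on no HCT116 array. Of 9 leukocyte and endothelial markers on the array, CD68 was detected on all 3 arrays of every group and LYZ on all 3 arrays of 5 of the 6 groups, CD14 and KDR on all 3 arrays of some groups, and CD3E, CDH5 and PECAM1 on no array. Whether a bulk level is lower through fewer cells of a kind or less RNA per cell cannot be told apart.

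Levels below are the deposited log2 intensities, where 1 unit is a doubling of background-corrected brightness, and a difference is calcitriol minus ethanol unless lines are named. The test is limma's moderated test over all arrays, with Benjamini-Hochberg adjustment over all genes and a threshold of 0.05. Differences of dim probes are shrunk by the offset in the deposited values.

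In brief, 1 member gene was lower past the threshold in each of 2 lines, ABCA1 in SW480 and ABCA3 in LS174T, and 1 of the ABCG1 probes was lower in both, while the probe that represents ABCG1 did not pass. ABCB1 passed in no single line. It passed on the average of the 3 lines, a call that 10 of 28 alternatives lost, among them the average without LS174T, where ABCB1 was hardly detected. None of the 4 ABCC genes tested passed with calcitriol. No member passed the test in HCT116, where 0.0729% of all genes did.

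**Figure D1:**
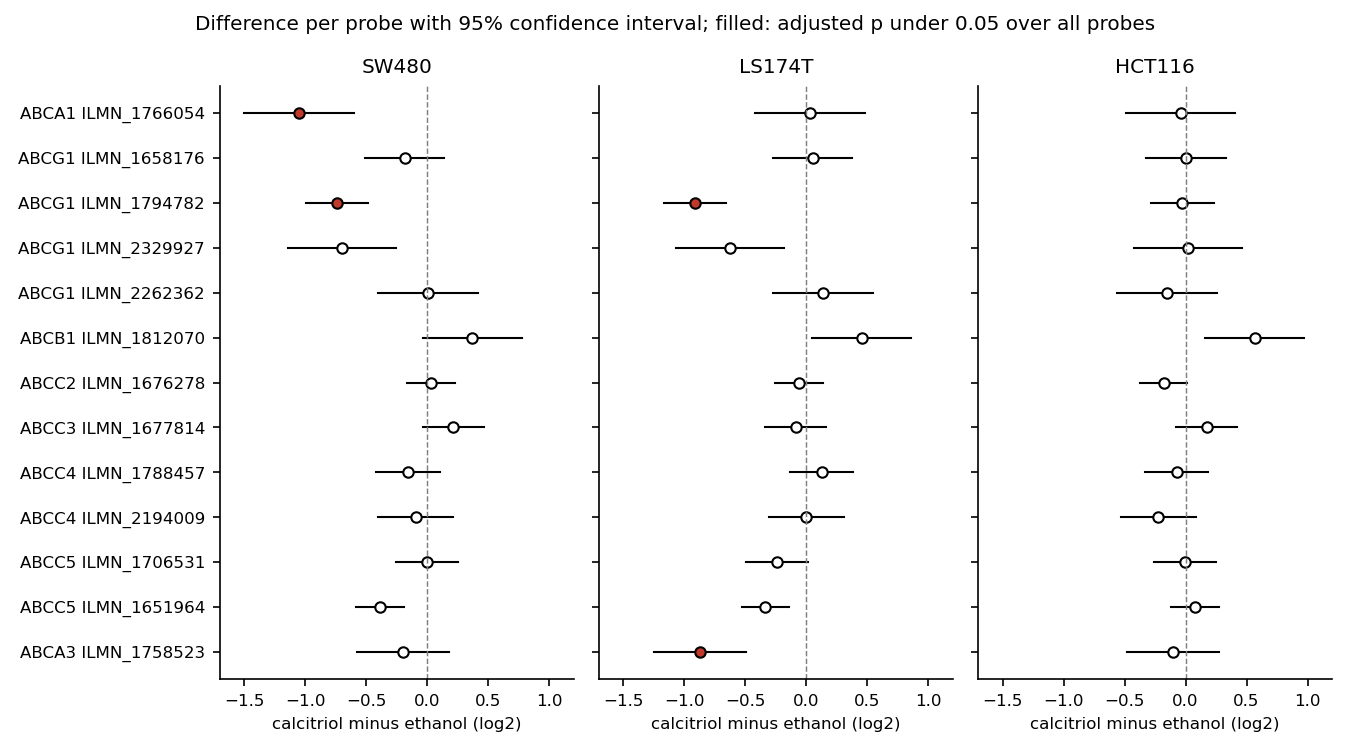
Calcitriol minus ethanol, in log2 units, for the 13 member probes detected on at least 3 arrays, in SW480, LS174T and HCT116. Points are differences of means of 3 arrays, bars are 95% confidence intervals, and filled points passed adjusted p under 0.05 over all 25586 probes: ABCA1 and ABCG1 ILMN_1794782 in SW480, ABCG1 ILMN_1794782 and ABCA3 in LS174T, and none in HCT116.

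Among the lipid exporters, ABCA1, which loads cholesterol onto apolipoprotein A-I, had 5.49, 6.25 and 6.27 log2 units on the SW480 calcitriol arrays, against 6.97, 7.53 and 6.66 on the SW480 ethanol arrays. All calcitriol arrays lay below all ethanol arrays, and the lowest calcitriol array did not detect the probe. The drop of ABCA1 in SW480 was -1.05 ± 0.21 (SE) on the log2 scale, or 2.07-fold (group SDs 0.45 and 0.44, n = 3 each; limma adjusted p = 0.0154). In SW480, 1 of 8 member genes was lower past the threshold, where 1.68% of all genes were. The call rests on single arrays: without calcitriol replicate 1 the difference was -0.79 (adjusted p = 0.0644), without ethanol replicate 2 it was -0.81 (adjusted p = 0.0818), and with the 6 SW480 arrays alone the adjusted p was 0.165.

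In HCT116, ABCA1 had 6.69, 6.46 and 6.63 log2 units with calcitriol, against 6.44, 6.87 and 6.59 with ethanol, so the groups overlapped. The HCT116 difference was -0.04, with a 95% confidence interval of -0.49 to 0.40. In LS174T no array detected ABCA1 in either group, so its response there was not measured. The response in SW480 minus that in HCT116 was -1.01 (adjusted p = 0.0837), and the F-test of whether the 3 responses differed gave adjusted p = 0.0565, so a difference between lines did not pass. The SW480 minus HCT116 value passed without SW480 ethanol replicate 3 (-1.20, adjusted p = 0.0423), without background correction (adjusted p = 0.0468) and with median scaling (adjusted p = 0.0448), in 3 of 21 alternatives (adjusted p 0.0423 to 0.227).

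A stretch of the ABCA1 promoter is shown because the region is known for LXR control. The 250 bases before the gene's start, from RefSeq on GRCh38.p14 at chr9:104928156-104928405, minus strand, are printed 5′ to 3′ with the letters that match AGGTNANNNNNGGTCA on the opposite strand in capitals.
ABCA1: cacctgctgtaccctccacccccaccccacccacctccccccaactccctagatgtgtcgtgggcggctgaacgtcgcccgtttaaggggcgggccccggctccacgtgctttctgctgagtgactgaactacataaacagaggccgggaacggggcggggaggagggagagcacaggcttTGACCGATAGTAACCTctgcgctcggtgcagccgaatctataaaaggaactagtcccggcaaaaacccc
The match ends 53 bases before the start. This looser pattern was added after the expression values were seen. Its letters allow for the ABCA1 stretch shown, so the match in ABCA1 is a description and carries no comparison. For the letters alone, 33 of 35116 promoters hold the pattern (0.094%). That count searched each promoter's whole listed sequence, which may be longer than the 250 bases shown.

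The stricter search asked for 2 receptor half-sites in direct repeat on either strand, where a half-site was the sequence AGGTCA, its variant with the letters AGTTCA, the variant that reads GGGTCA or the variant that reads GGTTCA. With a spacer of 3 bases it was found in 0 of 12 member promoters and in 0.074% of all promoters. With a spacer of 4 bases it was found in 0 of 12 and in 0.0854% of all. The capital letters of the ABCA1 stretch above hold no listed half-site, so the stricter search could not find that stretch. A single half-site was in 6 of 12 member promoters (50%), in those of ABCA1, ABCB1, ABCC2 and ABCG2, against 38.6% of all. ABCG2 holds 5 of the 12 and ABCB1 2, so promoters of the same gene are counted separately and the shares are not per gene. The table gives promoters for 7 of the 10 members and not for ABCG1, ABCC1 or ABCC3. A match or its absence describes the letters of the listed promoter sequences alone.

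ABCA3, a lipid transporter best known for filling surfactant bodies in lung cells, had 5.92, 6.37 and 6.46 log2 units on the LS174T calcitriol arrays, against 7.33, 6.77 and 7.27 on the LS174T ethanol arrays. The groups did not overlap. ABCA3 was lower by 1.83-fold in LS174T, a log2 difference of -0.87 ± 0.17 (SE; means 6.25 ± 0.29 and 7.12 ± 0.31, SD, n = 3 each; adjusted p = 0.00568). With the 6 LS174T arrays alone the adjusted p was 0.0709. In LS174T, 1 of 8 members was lower past the threshold, where 3.24% of all genes were. The difference was -0.10 in HCT116, and in SW480 the probe was detected on 0 calcitriol arrays and 1 ethanol array. Averaged over the 3 lines, SW480 included, ABCA3 differed by -0.39 ± 0.10 (SE) and narrowly missed the threshold (limma adjusted p = 0.0501). That average passed in 7 of 27 alternatives. The LS174T response minus the HCT116 response was -0.77 and did not pass (adjusted p = 0.119), and without LS174T ethanol replicate 2 it was -0.95 (adjusted p = 0.0486, against up to 0.235 under other alternatives).

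ABCC3 and ABCB1 are plotted with these genes for comparison.

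**Figure D2:**
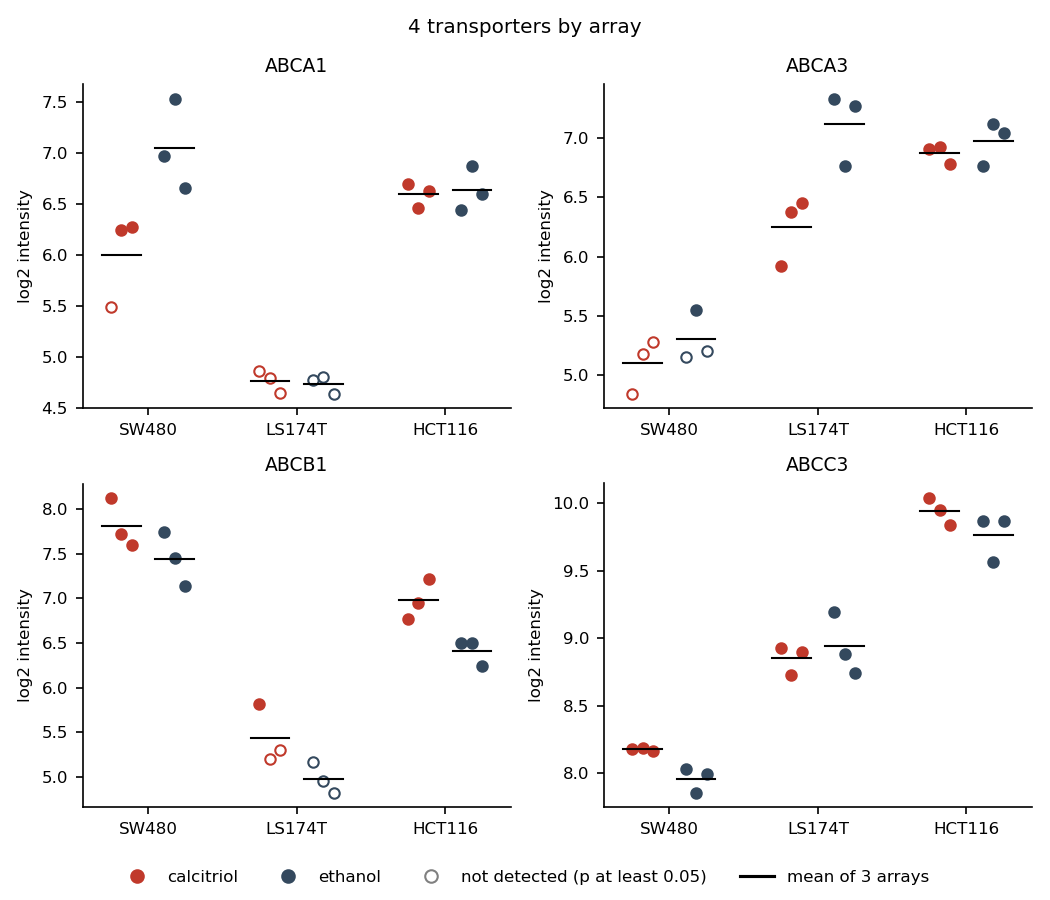
Log2 intensity on each array for ABCA1, ABCA3, ABCB1 and ABCC3, calcitriol left of ethanol within each line, with open points where the probe was not detected and a bar at the mean of 3 arrays. ABCA1 was lower with calcitriol in SW480 (5.49 to 6.27, against 6.66 to 7.53), ABCA3 was lower in LS174T (5.92 to 6.46, against 6.77 to 7.33), and ABCB1 means were higher in every line.

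ABCG1, which moves cholesterol to lipoprotein particles and is read by 5 probes, gave different readings by probe. The brightest, ILMN_1658176, assigned to transcript NM_207629, stands for the gene in the fit over genes. It had 6.49, 6.63 and 6.56 log2 units with calcitriol in SW480, against 6.62, 6.57 and 7.04 with ethanol. Its groups overlapped in every line. The differences were -0.18 ± 0.15 (SE) in SW480, 0.05 ± 0.15 in LS174T and 0.00 ± 0.15 in HCT116, and none passed (adjusted p 0.605, 0.915 and 0.998).

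Probe ILMN_1794782, assigned to transcript NM_016818, fell in the same RNA. It had 5.61, 5.51 and 5.84 log2 units on the LS174T calcitriol arrays, against 6.58, 6.56 and 6.56 on the LS174T ethanol arrays. In SW480 it had 6.23, 6.37 and 5.99 with calcitriol, against 6.79, 7.21 and 6.80 with ethanol. The groups did not overlap in either line, and 1 LS174T calcitriol array did not detect the probe.

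In the fit across all 25586 detected probes, ILMN_1794782 fell by 0.91 ± 0.12 (SE) in LS174T, a 1.88-fold difference (adjusted p = 0.00021; 1.7% of probes were lower past the threshold). It fell by 0.74 ± 0.12 in SW480, a 1.67-fold difference (adjusted p = 0.00756; 0.809% of probes were lower). Over the 3 lines the mean difference was -0.56 ± 0.07 (adjusted p = 0.000284; 0.637% of probes were lower). With the 6 SW480 arrays alone, the SW480 adjusted p was 0.193, and the LS174T call passed in all 15 alternatives.

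In HCT116 ILMN_1794782 stayed close together, at 6.60, 6.67 and 6.68 with calcitriol, against 6.69, 6.65 and 6.69 with ethanol, a difference of -0.03 with an interval of -0.28 to 0.23. The responses of the lines differed by the F-test (adjusted p = 0.0162; 2.86% of probes passed). The LS174T response minus the HCT116 response was -0.89 (adjusted p = 0.0129; 0.747% of probes were lower), with an interval of -1.25 to -0.53, and the SW480 response minus the HCT116 response was -0.71 (adjusted p = 0.0613).

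A second probe for NM_016818, ILMN_2329927, was at least 1.42-fold lower in SW480 and had no bound clear of 1 in LS174T, and it differed by 0.02 in HCT116. Neither of the first 2 lines passed (adjusted p = 0.13 and 0.135, on fitted differences of -0.70 and -0.63 from signal near background). It was dim: the calcitriol arrays of SW480 and LS174T detected it on 0 of 3 each, against 3 of 3 and 2 of 3 ethanol arrays, and the SW480 ethanol arrays ranged from 5.53 to 6.67. Probe ILMN_2262362, for NM_207627, differed by 0.00 in SW480, 0.13 in LS174T and -0.15 in HCT116, with 6 of 18 arrays detecting it, and ILMN_1695968, for NM_207174, was detected on none.

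The change of ILMN_1794782 minus the change of ILMN_1658176, taken array by array, was -0.97 in LS174T and -0.55 in SW480, and the groups did not overlap in either. The two-sided exact permutation test gave p = 0.1 in each, the smallest that 3 arrays against 3 allow. In HCT116 it was -0.03 (exact permutation p = 0.8). The gap largely repeats the fall of ILMN_1794782 given above, so it is no separate support. How often probe pairs of other genes lie apart was not computed. The probe sequences were not used here, so whether the probes read separate transcripts rests on the annotation.

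**Figure D3:**
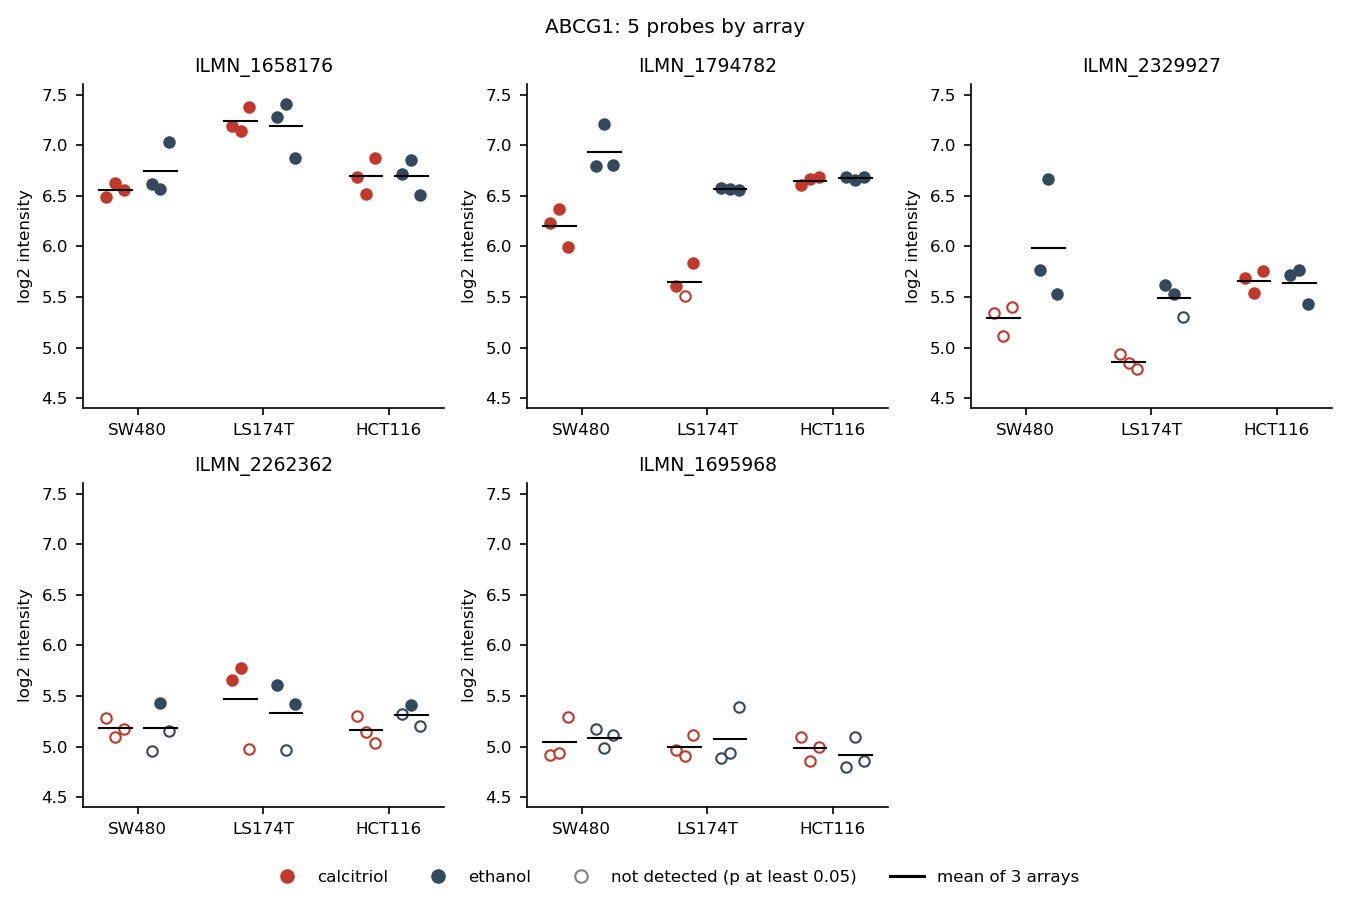
Log2 intensity on each array for the 5 ABCG1 probes, calcitriol left of ethanol within each line, open points not detected and bars at the mean of 3 arrays. ILMN_1794782 was lower with calcitriol in SW480 and LS174T, where ILMN_1658176 overlapped between treatments. ILMN_2329927 had lower means with calcitriol in those lines but passed in neither, and no calcitriol array there detected it.

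Among the drug exporters, ABCB1 had 6.77, 6.95 and 7.22 log2 units on the HCT116 calcitriol arrays, against 6.50, 6.50 and 6.24 on the HCT116 ethanol arrays. In SW480 it had 8.12, 7.72 and 7.59 with calcitriol, against 7.74, 7.45 and 7.13 with ethanol. In LS174T it had 5.81, 5.20 and 5.30 with calcitriol, against 5.16, 4.96 and 4.82 with ethanol, and only 1 of these 6 arrays, from calcitriol, detected it.

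The groups did not overlap in HCT116 and LS174T, and overlapped in SW480. ABCB1 differed by 0.57 ± 0.19 (SE) in HCT116, 0.45 ± 0.19 in LS174T and 0.37 ± 0.19 in SW480, where the LS174T value compares signal near background and gives no fold bound above 1, and in no line alone did it pass (adjusted p 0.298, 0.202 and 0.344). Averaged over the lines, ABCB1 rose by 0.46 ± 0.11 (SE), a 1.38-fold difference (adjusted p = 0.0292), which made it the 1 member of 8 higher past the threshold, where 1.31% of all genes were. Differences above 0 in all 3 lines were seen for 9.92% of all genes. The average includes LS174T: over SW480 and HCT116 alone, an alternative added after seeing the data, it was 0.47 ± 0.13 and did not pass (adjusted p = 0.216). The call was lost under 10 of 28 alternatives, which were that one, median scaling (adjusted p = 0.0721) and leaving out any 1 of 8 arrays: SW480 calcitriol 1 and ethanol 2 or 3, LS174T calcitriol 1 and ethanol 2 or 3, or HCT116 calcitriol 3 and ethanol 3 (adjusted p 0.0539 to 0.0648). The responses of the lines gave no call (F-test adjusted p = 0.884). Its other probe, ILMN_2094875, was detected on 2 arrays, both from SW480 with calcitriol, and was not tested.

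ABCC2 (MRP2), the apical exporter of conjugates, was detected on all 6 HCT116 arrays and on none of the 12 arrays of the other lines. It had 10.90, 10.83 and 10.82 log2 units with calcitriol in HCT116, against 11.02, 11.07 and 11.01 with ethanol. The groups did not overlap, with a difference of -0.18 ± 0.09 (SE), a 1.13-fold difference that did not pass (adjusted p = 0.484).

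ABCC3 (MRP3), a basolateral exporter of conjugates and bile acids, ranged from 8.16 to 8.19 log2 units on the 3 calcitriol arrays of SW480, against 7.86 to 8.03 on its 3 ethanol arrays. The SW480 groups did not overlap, with a difference of 0.22 ± 0.11 (SE; adjusted p = 0.366). In LS174T ABCC3 differed by -0.09, and in HCT116 by 0.17.

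ABCC4 (MRP4), which exports cyclic nucleotides and prostaglandins, differed by -0.16 in SW480, 0.13 in LS174T and -0.07 in HCT116 on its brighter probe, ILMN_1788457. Its other probe, ILMN_2194009, gave -0.09, 0.00 and -0.22 in those lines. No ABCC4 difference passed.

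ABCC5 (MRP5), an exporter of nucleotide analogs, was read by 2 detected probes. ILMN_1706531, for NM_005688, differed by 0.00 in SW480, -0.24 in LS174T and 0.00 in HCT116. ILMN_1651964, for NM_001023587, had 9.25, 9.31 and 9.39 log2 units with calcitriol in SW480, against 9.77, 9.69 and 9.66 with ethanol. In LS174T it had 7.66, 7.58 and 7.70 with calcitriol, against 8.08, 8.08 and 7.78 with ethanol.

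The calcitriol arrays of ILMN_1651964 lay below the ethanol arrays in both lines. Its differences of -0.39 ± 0.09 (SE) in SW480 (adjusted p = 0.0543) and -0.34 ± 0.09 in LS174T (adjusted p = 0.0574) missed the threshold, and in HCT116 it differed by 0.08. ABCC5 ILMN_2302358 and ABCG2 (BCRP), which exports drugs and urate, were detected on no array, with ABCG2 means from 4.54 to 4.62 log2 units.

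In HCT116, 0 of 8 members passed the limma test, with 1 at an unadjusted p under 0.05 (ABCB1). Among all genes 0.0729% passed there, so a count of 0 lies near the background. The calcitriol range lay wholly above or below the ethanol range for 3 of 8 members in SW480 (22.1% of all genes), 3 of 8 in LS174T (23.5%) and 2 of 8 in HCT116 (15.6%): ABCA1, ABCC3 and ABCC4, then ABCB1, ABCC5 and ABCA3, then ABCB1 and ABCC2. The median difference of the 8 members was -0.08 in SW480, -0.01 in LS174T and -0.02 in HCT116, beside -0.01, -0.02 and 0.00 over all genes. By the F-test, 0 of 8 responses differed among the lines over genes (5.58% of all genes; 2 of 8 at an unadjusted p under 0.05).

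Without treatment the lines differed in which members their arrays detected. In ethanol, HCT116 detected all 8 tested members on all 3 arrays, SW480 detected 6 and LS174T 5. Of all probes, ethanol arrays detected 41.8% to 44.2% in HCT116, 43.6% to 44.0% in SW480 and 42.1% to 43.6% in LS174T. The 8 were kept by a detection filter that ABCC2 passed through its 6 HCT116 arrays alone, so the HCT116 count is partly built in. The levels of all 8 differed among the lines (F-test adjusted p up to 0.0116), where 79.7% of all genes did, so a difference between lines is common. By pairs of lines, 7 of 8 members differed between SW480 and LS174T (63.8% of all genes), 6 of 8 between SW480 and HCT116 (64.4%) and 6 of 8 between LS174T and HCT116 (60.4%).

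**Figure D4:**
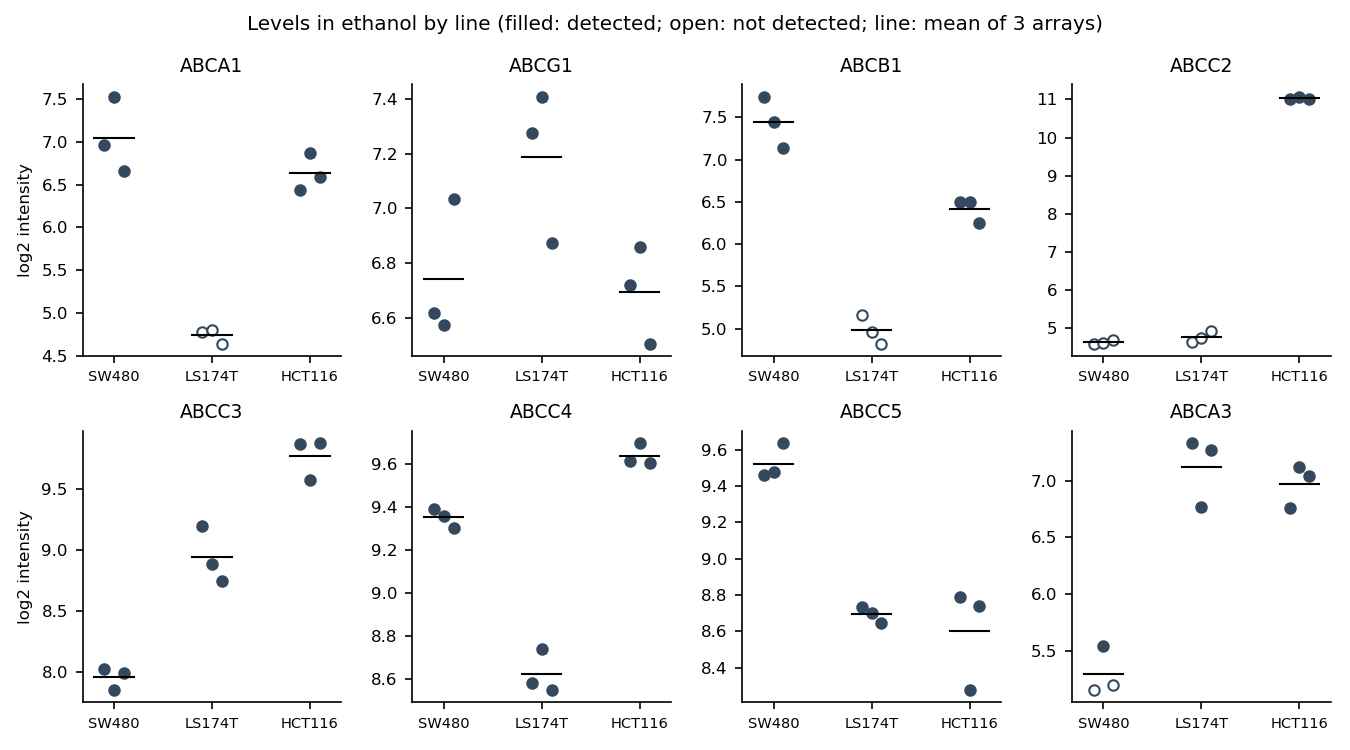
Log2 intensity on each ethanol array for the 8 tested members in SW480, LS174T and HCT116, each on the probe that represents its gene. Open points were not detected and bars are means of 3 arrays: ABCC2 was detected in HCT116 alone (11.03), and ABCA1 and ABCB1 were not detected in LS174T.

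ABCC2 in ethanol was lower by at least 49.0-fold in SW480 and at least 47.8-fold in LS174T than in HCT116, where its mean was 11.03 ± 0.03 (SD, n = 3). ABCA1 was highest in SW480 and HCT116, at 7.05 ± 0.44 and 6.64 ± 0.22, a difference of 0.41 that did not pass (adjusted p = 0.0956). Across the alternatives it ran from 0.09 to 0.62 (adjusted p 0.0215 to 0.749), with 0.61 without SW480 ethanol replicate 3 (adjusted p = 0.0215) and 0.18 without SW480 ethanol replicate 2 (adjusted p = 0.467). ABCA1 was at least 3.03-fold higher in SW480 than in LS174T, and in LS174T at least 2.27-fold lower than in HCT116.

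ABCB1 had 7.44 ± 0.30 in SW480, no detecting array in LS174T and 6.41 ± 0.15 in HCT116. The SW480 level was higher than that of HCT116 by 1.03 (adjusted p = 0.000148) and at least 3.96-fold higher than that of LS174T, and LS174T was at least 1.95-fold lower than HCT116. ABCC3 had means of 7.96 in SW480, 8.94 in LS174T and 9.77 in HCT116, and each step passed. The log2 difference in ABCC3 was -1.81 for SW480 minus HCT116 (adjusted p = 4.94e-10), -0.83 for LS174T minus HCT116 (adjusted p = 8.4e-06) and -0.98 for SW480 minus LS174T (adjusted p = 9.75e-07).

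ABCC4 had 9.35 ± 0.04 log2 units in SW480, 8.62 ± 0.10 in LS174T, the lowest of the lines, and 9.64 ± 0.05 in HCT116. The step between SW480 and HCT116, -0.29, passed narrowly (adjusted p = 0.0453) and turned to 0.09 when arrays were scaled to their medians (adjusted p = 0.662). It also missed the threshold when any 1 of the 6 SW480 and HCT116 ethanol arrays was left out (adjusted p 0.0665 to 0.116). ABCC5 was highest in SW480, at 9.53 ± 0.10, above LS174T at 8.69 ± 0.04 and HCT116 at 8.60 ± 0.28, which did not differ beyond their spread (adjusted p = 0.522).

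ABCA3 had 7.12 ± 0.31 log2 units in LS174T and 6.97 ± 0.19 in HCT116, which did not differ beyond their spread (adjusted p = 0.498). SW480, with 1 detecting array of 3, lay below both, with log2 differences of -1.67 from HCT116 (adjusted p = 2.95e-07) and -1.82 from LS174T (adjusted p = 1.01e-07). For ABCG1 on ILMN_1658176, LS174T minus HCT116 was 0.49 (adjusted p = 0.00937). Without LS174T ethanol replicate 2 that difference was 0.38 (adjusted p = 0.0548). SW480 minus LS174T was -0.44 (adjusted p = 0.016), with arrays that overlapped, and this call was lost without SW480 ethanol replicate 1 or 2 or LS174T ethanol replicate 1 or 2 (adjusted p 0.056 to 0.0863) and with median scaling (adjusted p = 0.214).

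The order of the lines depended on the probe. ABCG1 ILMN_1794782 had 6.93 in SW480, 6.57 in LS174T and 6.68 in HCT116, so that SW480 minus LS174T was 0.37 (adjusted p = 0.016) and LS174T minus HCT116 was -0.11 (adjusted p = 0.484). On ABCG1 ILMN_1658176, SW480 and HCT116 differed by 0.05 (adjusted p = 0.801).

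ABCA1 and ABCG1 share LXR control with other genes of cholesterol handling, of which 19 of 25 listed genes were tested. In LS174T 4 of the 19 were lower and 0 higher, where 3.24% of all genes were lower. SMPDL3A, a secreted phosphodiesterase, fell by 0.56 ± 0.12 (SE; adjusted p = 0.00931), APOE, the lipoprotein ligand, by 0.47 ± 0.09 (adjusted p = 0.00501), MYLIP, which degrades the LDL receptor, by 0.35 ± 0.09 (adjusted p = 0.0356), and LPCAT3, which remodels phospholipids, by 0.30 ± 0.08 (adjusted p = 0.0322). Of the 19 differences 15 were below 0, with a median of -0.19 beside -0.02 over all genes. With arrays scaled to their medians 1 of the 19 was lower past the threshold, and SMPDL3A was not (adjusted p = 0.133). APOE was dim in LS174T, at 5.69 with calcitriol against 6.15 with ethanol. Without background correction its difference was -0.16 (adjusted p = 0.184), and with the 6 LS174T arrays alone the adjusted p was 0.0841. MYLIP missed the threshold in 9 of 16 alternatives and LPCAT3 in 8 of 16, among them leaving out LS174T ethanol 2 or LS174T calcitriol 1 or 2 for both, LS174T ethanol 3 or calcitriol 3 for MYLIP, and LS174T ethanol 1 for LPCAT3 (adjusted p 0.0543 to 0.165).

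In SW480 1 of the 19 was lower, SMPDL3A, where 1.68% of all genes were lower. SMPDL3A had 7.04, 7.25 and 7.40 log2 units with calcitriol, against 7.70, 7.96 and 8.11 with ethanol. The groups did not overlap, and the fall was 0.70 ± 0.12 (SE; adjusted p = 0.00645), with a list median of -0.08. In HCT116 0 of 19 passed limma's test, where 0.0729% of all genes did. There 4 of the 19 had an unadjusted p under 0.05, and the median was 0.08. SMPDL3A differed there by 0.28 (adjusted p = 0.41), and its responses differed among the lines (F-test adjusted p = 0.00463). A dimmer SMPDL3A probe, ILMN_2100357, detected on no SW480 array, did not pass in any line, at -0.26, -0.50 and 0.27 in SW480, LS174T and HCT116. SREBF1, the lipogenic regulator controlled by LXR, differed by -0.05 in SW480, -0.26 in LS174T and 0.00 in HCT116, with no call.

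**Figure D5:**
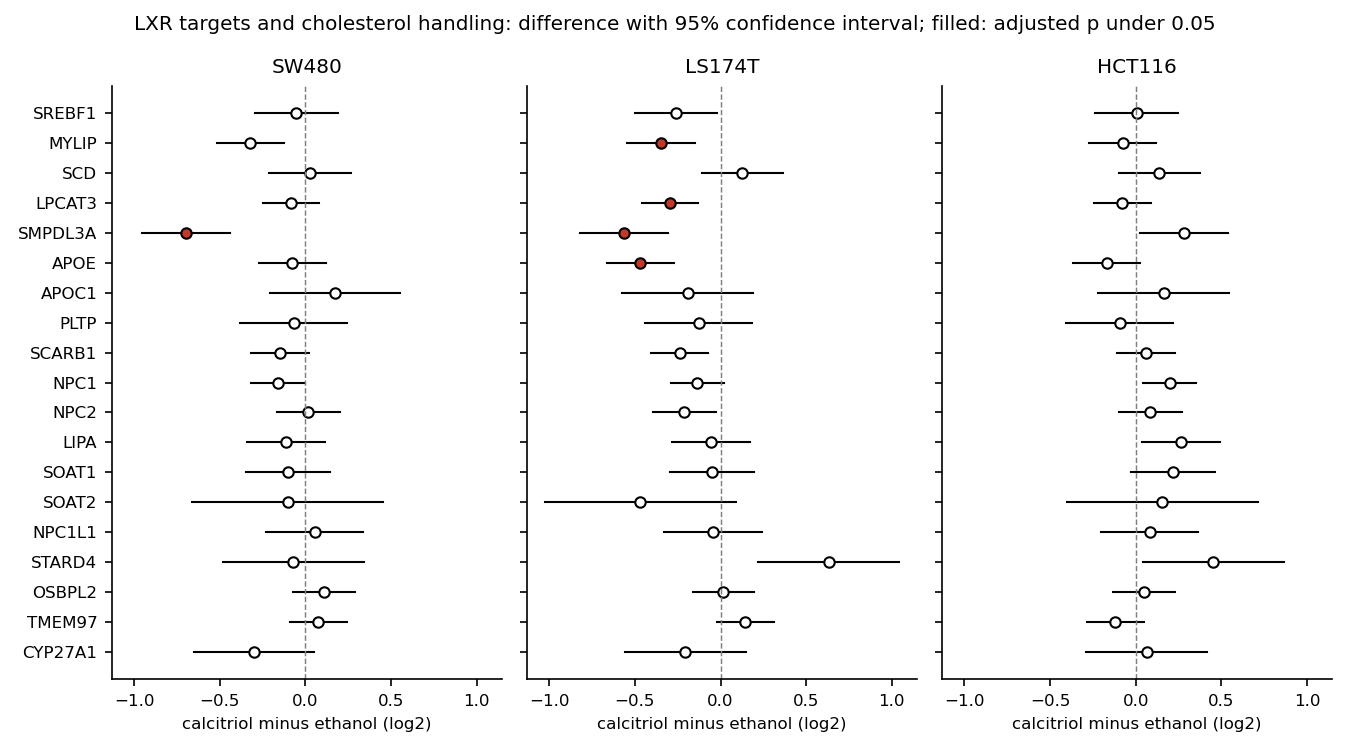
Calcitriol minus ethanol, in log2 units, for the 19 tested genes of the LXR and cholesterol list in SW480, LS174T and HCT116, with 95% confidence intervals and filled points at adjusted p under 0.05 over all genes. SMPDL3A passed in SW480 and LS174T, APOE, MYLIP and LPCAT3 in LS174T, and none in HCT116.

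Among receptors and regulators, 14 of 23 listed genes were tested and 2 were lower in LS174T (3.24% of all genes). In SW480 0 passed the threshold (338 of 13712 genes did), and in HCT116 0 did (0.0729% of all genes). At an unadjusted p under 0.05 there were 0 in SW480 and 0 in HCT116. NR1H3, which encodes LXR alpha, had 8.66, 8.84 and 8.95 log2 units on the LS174T calcitriol arrays, against 9.27, 9.28 and 9.03 on the ethanol arrays, a fall of 0.38 ± 0.09 (SE; adjusted p = 0.0261). PPARGC1A, a coactivator of nuclear receptors, fell by 0.63 ± 0.11 there (adjusted p = 0.00155). NR1H3 differed by 0.11 in SW480 and -0.01 in HCT116, and its responses did not pass as differing among the lines (F-test adjusted p = 0.0804). NR1H2, which encodes LXR beta, was not analysed here.

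VDR, the vitamin D receptor, had 6.70 ± 0.37 with calcitriol and 6.99 ± 0.35 with ethanol in SW480, 8.45 ± 0.19 and 8.29 ± 0.17 in LS174T, and 5.37 ± 0.05 and 5.50 ± 0.20 in HCT116 (SD, n = 3 each). HCT116, where no member passed and 0.0729% of all genes did, detected VDR on 0 of 3 calcitriol and 2 of 3 ethanol arrays. The part of the VDR level in the members' responses was not tested.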

How the data were processed

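Arrays were placed in groups by the cell line and treatment in their labels. The authors deposited unnormalized linear intensity per probe and array together with its detection p-value, per the file headers. The authors also deposited log2 values of the same arrays, which the main results use. The submitters' processing notes name limma, and no further step is given in the sources used here. Background correction and quantile normalization with neqc (offset 16) in limma 3.58.1, R 4.3.3, gave values within 0.201 of the deposited ones, so their scale is normalized log2 intensity. The 887 rows without a probe identifier were left out.

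The platform annotation gives 1 symbol to 30113 probes, several symbols to 8, and has no entry for 17202. Symbols were updated through Entrez identifiers (30074 probes) to RefSeq. Probes detected at p under 0.05 on at least 3 of 18 arrays were kept (25586), and each gene was represented by its brightest probe (13712 genes). Group means were fitted with lmFit and eBayes over all arrays, with Benjamini-Hochberg adjustment over all genes, or over all probes for other member probes. The fit was tested on simulated data. Where no array of a group detected a probe, a fold is given as a lower bound, the brighter group's mean against, per array, the higher of the dim value and the lowest level among detected probes. The number of arrays limits the precision.

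The members, the gene lists and the tests were chosen with earlier results of these data known. Named genes are all members, up to 6 listed genes per list and comparison past the threshold, VDR, NR1H3, NR1H2, MYLIP, SREBF1 and CYP24A1, and the genes most correlated with a member. Promoters came from RefSeq, GRCh38.p14. Protein features were not used here. Alternatives covered the values, background, scaling, filters, probes in the fit, variance model, replicate block, array brightness, arrays in the fit and each array left out. The files name no slides.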

Additional observations from a re-analysis of the deposited data

Results flagged for a closer look

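The response of ABCG1 probe ILMN_1794782 in LS174T minus its response in HCT116 was -0.89 log2 units and passed the test of the difference itself (limma adjusted p = 0.0129 over all detected probes). The difference was picked out because it passed that test, so its passing adds no further support. Calcitriol minus ethanol for this probe was -0.91 in LS174T and -0.03 in HCT116. Without background correction it was -0.33 and did not pass (adjusted p = 0.0795).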

How the results depend on the processing

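Over 97 single differences and their alternatives, 1714 of 1799 values kept their direction and side of the threshold, 62 lost a call, 22 gained one and 1 reversed: ABCC4 in SW480 minus HCT116 in ethanol, at 0.0927 with median scaling. Of 201 counts, 38 moved by over 1.5 times. The cause was not tested. Among members past the threshold, the count on the mean of the lines was 2 without background correction, with the stricter filter and with trend and robust fitting, and 0 with median scaling. It was 0 to 2 with 1 array left out. The count of members whose responses differed was 1 under those same 4 settings and 0 to 1 with 1 array left out. In LS174T it was 0 with only the arrays compared. In SW480 it was 0 with only the arrays compared, and 0 to 1 with 1 array left out.

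For the LXR and cholesterol list, the count lower in LS174T was 1 with median scaling, 2 with all detected probes in the fit, 1 with only the arrays compared and 2 to 3 with 1 array left out. In SW480 it was 2 without background correction, 2 with trend and robust fitting, 0 with only the arrays compared and 1 to 2 with 1 array left out. On the mean of the lines it was 0 with median scaling.

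Same-numbered calcitriol and ethanol arrays did not deviate together (r from -0.0896 to 0.00121). These values cannot tell whether same-numbered arrays shared a culture or a day, and the labels do not say. With the replicate block, ABCA1 in SW480 had adjusted p = 0.0531, so 0 members passed there, and the LXR list counts were 2 in LS174T and 1 on the mean of the lines. Over all genes the block gave 2 calls, against 10, in HCT116, 525, against 829, in LS174T, 72, against 338, in SW480, and 189, against 373, on the mean. No paired analysis was possible for the lines in ethanol because the numbers lie within lines.

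Counts over all genes ranged from 17 to 514 in SW480, 450 to 1059 in LS174T and 2 to 24 in HCT116. Responses differing among lines ranged from 225 to 1260 genes, against 765. Median scaling moved the share of calls that were higher to 6.56%, against 32%, in SW480, to 65.1%, against 46.4%, in LS174T, to 100%, against 70%, in HCT116 and to 59.8%, against 48%, on the mean, with a median shift over all genes of -0.09, 0.04, 0.09 and 0.01. The slide as a block was not run because the files name no slides. Signal near background limits ABCA1 and ABCB1 in LS174T, ABCA3 in SW480, ABCG1 probe ILMN_2329927 in SW480 and LS174T, ABCC2 outside HCT116 and ABCG2 throughout.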

Other observations

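Of 23 tested of 38 listed other ABC genes, TAP1, a peptide transporter of antigen presentation, was the 1 past the threshold in LS174T, where it fell by 0.59 ± 0.08 (SE; limma adjusted p = 0.000298). Among all genes 829 of 13712 passed there, a larger share than 1 of 23. TAP1 had 10.12, 10.35 and 10.23 log2 units with calcitriol in LS174T, against 10.79, 10.88 and 10.82 with ethanol. In SW480 ABCB8, a mitochondrial transporter, was the 1 past the threshold, at least 1.26-fold lower (adjusted p = 0.0423), with calcitriol detecting it on 0 of 3 arrays and ethanol on 3 of 3, where 338 of all 13712 genes passed.

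Among 20 tested glutathione genes, GSR, which recycles glutathione, was the 1 past the threshold in LS174T, rising by 0.32 ± 0.08 (SE; limma adjusted p = 0.018), while a dimmer GSR probe differed by -0.17 there. Its 1 of 20 is also a smaller share than the 829 of 13712 genes that passed. Among 10 tested uptake carriers, SLCO4A1, an organic anion carrier, was the 1 past the threshold in LS174T, rising by 0.75 ± 0.09 (adjusted p = 8.53e-05). Its 1 of 10 stands beside the same 829 of 13712 genes.

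Of the markers, KRT19 fell by 0.57 and LGALS4 rose by 0.47 in LS174T, LUM fell by 0.75 in LS174T and COL1A1 rose by 1.00 in SW480. Summed fibroblast markers were 1114 to 1230 with calcitriol and 1071 to 1231 with ethanol in SW480, and 273 to 311 and 319 to 391 in LS174T, in linear units of the deposited log2 values. Their part in the members' differences was not tested.

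After each line's mean was subtracted, the genes most correlated with a member over the 18 arrays were TLE4 with ABCA1 (Pearson r 0.93), TPP1 with ABCA3 (0.87), STAMBPL1 with ABCB1 (0.84) and IL27RA with ABCG1 ILMN_1794782 (0.93). These arrays share lines and treatments, and the values are a description.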
